A study of Mus musculus with 9 samples.

Results

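Acetylation of lysine 27 of histone H3 (H3K27ac) was mapped in MYCN-driven T cell lymphoma cells from the thymus of C57BL/6J mice, and 1 list of peaks was deposited for it. All distinct peaks of that list on the 19 autosomes, X and Y were taken, which gave 87072 of the 282301 peaks in the 7 lists of the series. The other lists came from the same kind of cells and were made with antibodies against H3K4me3, p300, N-MYC, EZH2, SUZ12 and H3K27me3, with 1 library per antibody, and 2 input libraries had no peak list. Every library was made by ChIPmentation, in which a transposase inserts the sequencing adapters while the chromatin is held by the antibody. The labels do not name the promoter that drives MYCN, the stage or age of the lymphoma, or the animal behind each immunoprecipitation, and all 7 lists share the same strain, tissue and tumour type, with no list from normal thymus. With 1 library for H3K27ac there is no replicate check, so the values below describe 1 library, and no p-value is given.

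H3K27ac is placed on nucleosomes mainly by the acetyltransferases p300 and CBP, removed by histone deacetylases and read by bromodomain proteins. It marks active promoters and active enhancers, and it cannot sit on the same histone tail as H3K27me3, the mark of Polycomb repressive complex 2, because both use the same lysine. Long clusters of acetylated enhancers are known in lymphoid cells at genes that define the cell type, and in T cells these include genes of transcription factors and of the T-cell receptor pathway.

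The promoters below show the range over which acetylation was found. Each is the sequence of 250 bases before the listed start of a gene, from RefSeq on GRCm38.p6, 5′ to 3′ on the strand of the gene, with each CG dinucleotide in capitals. Top1 and Dnajb12 are shown as the promoters of strongly and broadly acetylated genes that are rich in CG. Cd3d and Lck are shown because they had strong promoter peaks with few or no CG, and Alb because it had no peak. The windows lie at chr2:160645647-160645896 (plus strand), chr10:59879333-59879582 (plus strand), chr9:44981536-44981785 (plus strand), chr4:129573642-129573891 (minus strand) and chr5:90460620-90460869 (plus strand).
Top1: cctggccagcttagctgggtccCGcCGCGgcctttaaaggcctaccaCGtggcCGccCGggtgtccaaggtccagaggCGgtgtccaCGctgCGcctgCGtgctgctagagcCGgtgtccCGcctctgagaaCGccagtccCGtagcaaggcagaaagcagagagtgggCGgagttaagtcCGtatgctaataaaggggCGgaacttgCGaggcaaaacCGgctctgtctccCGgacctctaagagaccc
Dnajb12: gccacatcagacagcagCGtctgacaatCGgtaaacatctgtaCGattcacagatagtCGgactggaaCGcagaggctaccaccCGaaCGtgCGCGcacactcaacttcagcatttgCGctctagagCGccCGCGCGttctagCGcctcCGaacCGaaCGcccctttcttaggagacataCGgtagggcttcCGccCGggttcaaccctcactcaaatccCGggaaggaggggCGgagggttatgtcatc
Cd3d: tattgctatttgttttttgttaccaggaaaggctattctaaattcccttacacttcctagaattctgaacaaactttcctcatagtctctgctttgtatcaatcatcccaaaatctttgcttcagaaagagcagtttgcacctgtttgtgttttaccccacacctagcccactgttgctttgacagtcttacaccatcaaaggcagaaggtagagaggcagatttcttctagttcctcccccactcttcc
Lck: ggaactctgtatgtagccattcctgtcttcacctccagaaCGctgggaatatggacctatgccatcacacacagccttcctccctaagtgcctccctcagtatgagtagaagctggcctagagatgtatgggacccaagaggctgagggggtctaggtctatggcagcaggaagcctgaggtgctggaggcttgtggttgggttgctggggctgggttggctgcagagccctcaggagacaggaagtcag
Alb: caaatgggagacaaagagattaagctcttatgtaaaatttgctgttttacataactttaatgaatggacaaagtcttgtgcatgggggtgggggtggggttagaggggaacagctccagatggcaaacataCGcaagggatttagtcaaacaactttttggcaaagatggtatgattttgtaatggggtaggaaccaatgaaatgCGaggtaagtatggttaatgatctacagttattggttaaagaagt

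These windows held 20 CG in Top1, 23 in Dnajb12, 0 in Cd3d, 1 in Lck and 2 in Alb. The strongest peak within 1 kb of the start had a fold enrichment, the authors' ratio of signal to background at the summit, of 40.4 in Top1, which encodes topoisomerase I. It was 17.99 in Dnajb12, a co-chaperone of the endoplasmic reticulum. It was 25.8 in Cd3d, a chain of the CD3 complex, and 21.2 in Lck, the kinase that starts T-cell receptor signalling. Alb, the albumin gene of liver, had no H3K27ac peak anywhere in the gene. The strong peaks at Cd3d and Lck therefore lay on promoters as poor in CG as that of Alb.

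The 87072 peaks covered 77.7 Mb, which was 2.93% of the span between the outermost peaks of the chromosomes. Most peaks were narrow, with a median width of 414 bp, and 57.7% were under 500 bp wide, but these narrow peaks held only 19.4% of the covered bp. At the other end, 1403 peaks of 5 kb or more held 13.3% of the covered bp. Peaks lay close together: the gap to the next peak had a median of 762 bp and was at most 3 kb for 67.8% of peaks, while 6.92% of gaps were over 50 kb.

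A peak was placed at a promoter when its summit lay within 1 kb of the listed start of a protein-coding gene, or of either end of a gene with no listed start. It was placed in a gene body when the summit lay elsewhere in a protein-coding gene, and otherwise between genes. By this rule 12105 peaks were at promoters, which was 13.9% (95% Wilson interval 13.7 to 14.1). Gene bodies held 46387 peaks, or 53.3% (52.9 to 53.6), and 28580 peaks, or 32.8% (32.5 to 33.1), lay between genes. The promoter windows made up 2.02% of the chromosome span, the rest of the genes 37.6% and the remainder 60.3%. The intervals cover counting error only, since neighbouring peaks are not independent.

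Promoter peaks were wider and stronger than the others. Their median width was 1590 bp and their median fold enrichment 9.66, and 48.5% of them reached a fold enrichment of 10. In gene bodies the median width was 370 bp and the median fold enrichment 3.87, with 3.61% at 10 or more. Between genes the same values were 385 bp, 3.98 and 4.77%. Counted by bp instead of by peak, promoters held 21.4% of the cover, gene bodies 49.4% and the space between genes 29.2%. Among the 44788 peaks with a fold enrichment of at least 4, the promoter share was 22.4%. Of the 1403 peaks of 5 kb or more, 28.8% had their summit at a promoter and 47.7% in a gene body. Over all peaks these shares were 13.9% and 53.3%, so wide peaks were more often at promoters, though most lay elsewhere.

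Among the 7 lists, H3K27ac had a low promoter share. At promoters lay 60.0% of H3K4me3 peaks (59.3 to 60.8), 60.6% of p300 peaks (59.9 to 61.4), 69.8% of N-MYC peaks (68.9 to 70.7) and 57.4% of EZH2 peaks (56.7 to 58.1). The share was 30.4% for SUZ12 (29.6 to 31.3) and 4.57% for H3K27me3 (4.46 to 4.69). None of these intervals overlapped that of H3K27ac. The number of promoter peaks was nearer between lists, with 12105 for H3K27ac, 10142 for H3K4me3 and 9486 for p300. Differences between antibodies, libraries and depths cannot be told apart.

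**Figure D1:**
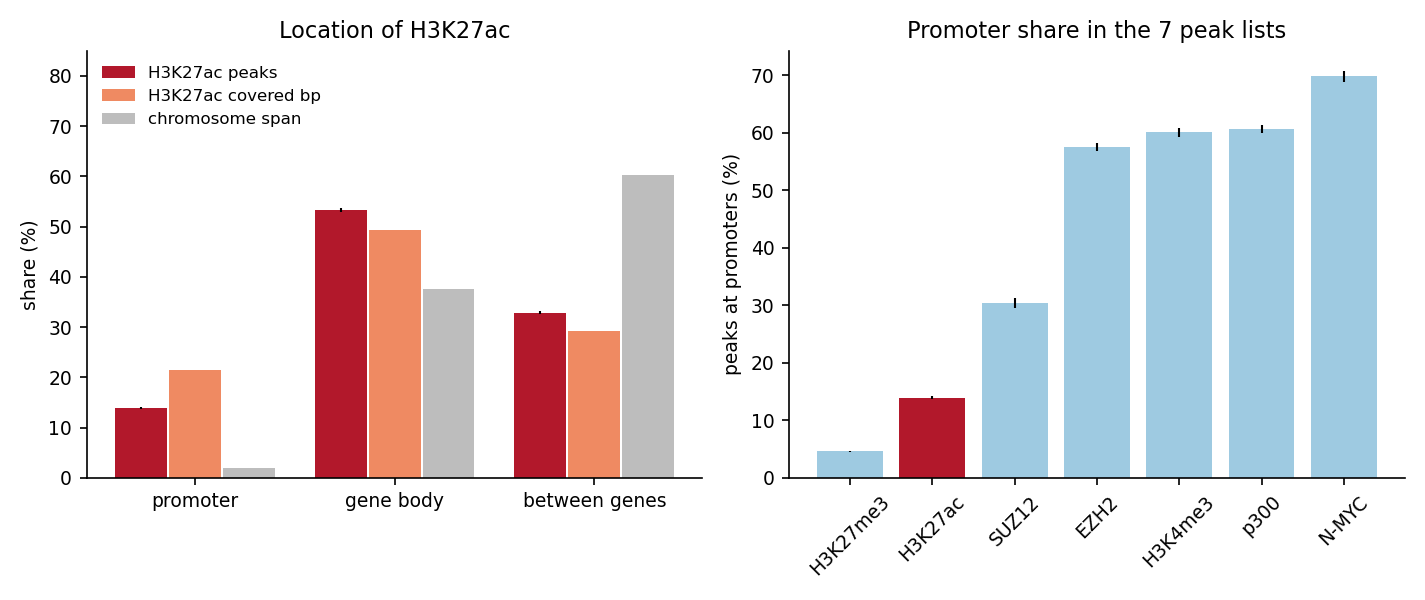
Left, share (%) of H3K27ac peaks, of H3K27ac covered bp and of the chromosome span at promoters, in gene bodies and between genes; right, share (%) of peaks at promoters in each of the 7 peak lists, with H3K27ac in red. Error bars are 95% Wilson intervals of the peak shares, 13.7 to 14.1% for H3K27ac at promoters, and promoters hold more of its covered bp (21.4%) than of its peaks (13.9%).

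The distance from a summit to the nearest start had a median of 14.0 kb over all peaks, promoter peaks included, and 91.9% of summits lay within 100 kb. For peaks in gene bodies the median was 16.5 kb. Peaks between genes had a median of 23.5 kb, and 70.8% of them lay within 50 kb of a start. In the 7948 genes of 20 kb or more with a listed start, cover was read along the gene. The span of each gene was divided into 10 equal parts from start to end. H3K27ac covered 10.9% of the first of these, 4.03% of the next, 3.17% of the lowest (the seventh) and 3.53% of the last. By comparison, H3K4me3 covered 11.7% of the first and 0.287% of the last, and p300 4.41% and 0.131%.

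Around the 17492 protein-coding genes with a listed start, H3K27ac cover was highest just inside the gene. At the start itself 45.3% of genes were covered, at 300 bp downstream 47.0%, at 1000 bp upstream 22.6% and at 1000 bp downstream 33.5%. At 5000 bp the cover had fallen to 6.79% upstream and 6.60% downstream. Of the 8839 summits within 1 kb of a start, 6530 lay downstream, or 73.9% (73.0 to 74.8). That share was 90.7% for H3K4me3 (90.1 to 91.3) and 54.5% for p300 (53.3 to 55.6), so the acetyltransferase was centred on the start while both histone marks lay towards the gene.

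**Figure D2:**
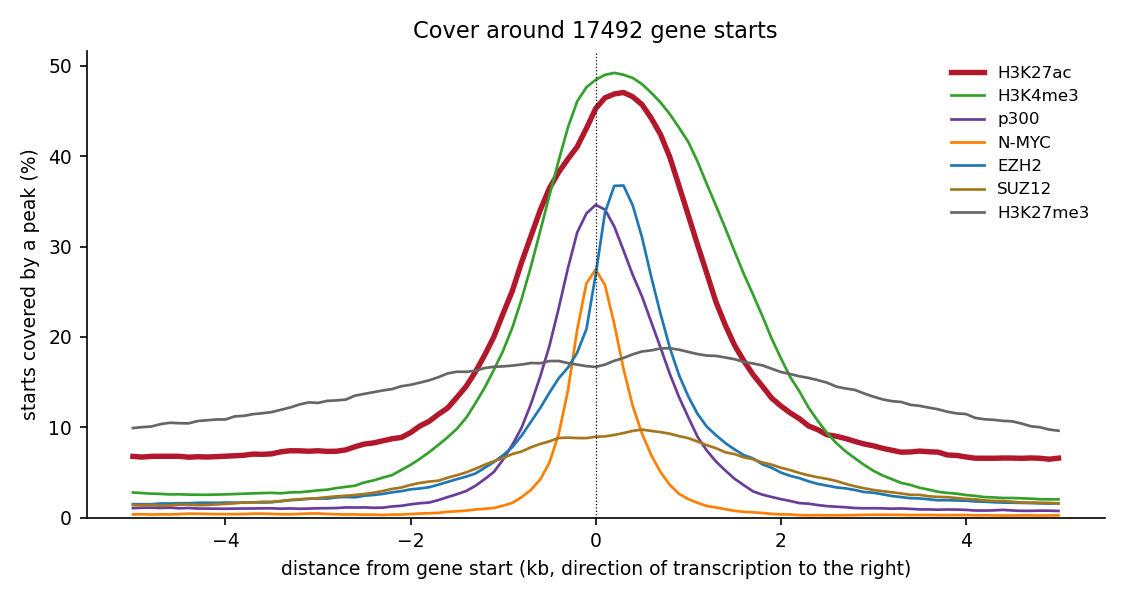
Share (%) of 17492 gene starts covered by a peak of each list, from 5 kb upstream to 5 kb downstream (x axis in kb, direction of transcription to the right), with H3K27ac as the thick red line. The H3K27ac line peaks at 47.0% at 300 bp inside the gene and is higher 1000 bp downstream (33.5%) than 1000 bp upstream (22.6%), while p300 and N-MYC peak at the start.

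Per gene, the territory was the span of the gene with 1 kb upstream of it, or 1 kb at both ends where no start was listed, and every covered base counted for each gene whose territory held it. Of 21887 protein-coding genes, 12838 (58.7%) had a peak in the territory, and 11302 (51.6%, Wilson interval 51.0 to 52.3) had one within 1 kb of a start. The promoter share was 52.2% in genes with a listed start and 49.5% in those read at either end. Over all RefSeq genes, noncoding genes and pseudogenes included, it was 32.3%. Genes with a peak had a median of 2 peaks and 2519.5 covered bp, with quartiles of 1658 and 4492 bp, and the median was 4095 bp when 10 kb on both sides was added to the span. A single peak was the whole of the cover in 4569 of them (35.6%), and 1570 (12.2%) had 10 peaks or more. Cover was unequal: the 2188 richest genes, 10% of all, had at least 6314 bp each and held 56.0% of the covered gene bp, and the richest 218 held 16.2%. At least 10 kb was covered in 1216 genes (5.56%) and at least 50 kb in 52.

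These values varied with gene length. Under 5 kb of span, 30.8% of 5034 genes had a peak, and the share was highest, 73.1%, among the 2516 genes of 50 to 100 kb. Above 200 kb it was 52.1% of 990 genes. Among genes with a peak the median cover was 2000 bp in the shortest class and 4795.5 bp in the longest, and the median covered share of the territory went from 51.0% to 1.55%. Most acetylated genes had cover on both sides of the promoter window's edge: 9349 genes had covered bp at the promoter and beyond it, 1953 at the promoter alone and 1538 beyond it alone.

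The most acetylated gene by covered bp was Gse1, which encodes a protein of histone deacetylase and demethylase complexes. It lies at chr8:120228501-120581383 on the plus strand, and 152 peaks covered 186.6 kb, or 52.7% of its territory. The next was Sorcs2 (chr5:36017180-36398197), a sortilin-family receptor best known from neurons, with 121 peaks over 110.5 kb. Its strongest peak at either end had a fold enrichment of only 2.89. SUZ12 and H3K27me3 peaks also lay at its ends, as they did at promoters of Nav2, Septin9 and Maml3 below. Its cover lay almost wholly in the body (110.0 kb), and most of the cover lay in the body in all 12 genes with most covered bp. That follows from the ranking, since promoter windows reach only 1 kb from a start and cannot hold so much cover. Zmiz1, a coactivator of Notch1, had 89 peaks over 100.1 kb, and Vps13d, a lipid transfer protein, had 125 peaks over 99.6 kb, of which 9.65 kb lay in other genes. Rftn1, a lipid raft protein of lymphocytes, followed with 112 peaks over 92.1 kb.

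The other 7 of the 12 genes with most cover had between 76.9 and 92.0 kb. Nav2, a navigator protein that binds microtubules, had 120 peaks over 92.0 kb and Mvb12b, a subunit of the ESCRT-I sorting complex, 70 over 86.4 kb. Ubash3b, a phosphatase that dampens T-cell receptor signalling, reached 85.4 kb with only 38 peaks, the smallest number of the 12, and 56.2% of its territory was covered. Chst11, a chondroitin sulfotransferase, had 99 peaks over 85.1 kb, and Septin9, a cytoskeletal GTPase, 62 over 82.4 kb. Maml3, a Mastermind-family coactivator of Notch, had 93 peaks over 78.3 kb in a gene of 418.0 kb. Ksr1, a scaffold of the MAP kinase pathway, had 61 over 76.9 kb and the highest covered share of the 12, 57.4%. The 8 genes with most peaks were all among these 12: Gse1, Vps13d, Sorcs2, Nav2, Rftn1, Chst11, Maml3 and Zmiz1.

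**Figure D3:**
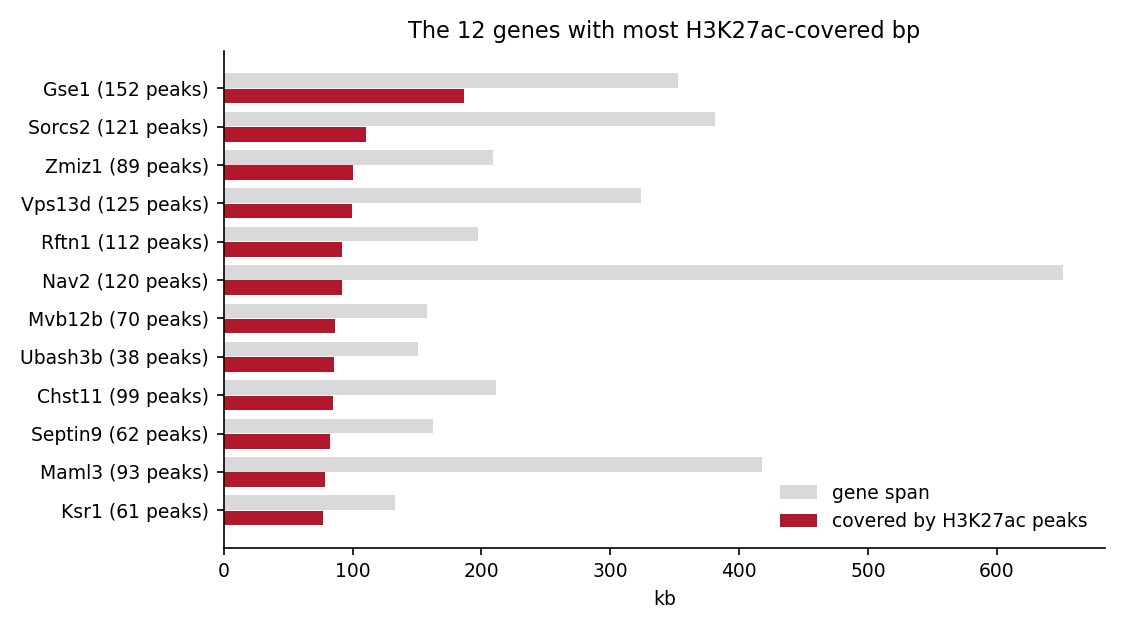
Gene span (grey) and bp covered by H3K27ac peaks (red), both in kb, for the 12 protein-coding genes with most covered bp, with the number of peaks beside each name. Gse1 stands first with 186.6 kb in 152 peaks, and the other 11 lie between 76.9 and 110.5 kb.

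Ranked by the covered share of the territory instead, among genes with at least 20 kb, the leading genes were shorter. Dnajb12 (chr10:59879583-59899296, plus strand), whose promoter is shown above, was covered over 92.6%. Gm38664, a predicted gene, followed with 92.2%, of which 9.94 kb lay in other genes, then Septin1, a septin of lymphocytes, with 89.1%, and Grk2, a kinase that silences G-protein-coupled receptors, with 87.4%. Sla, an adaptor that lowers T-cell receptor levels, had 86.8%, but its whole cover of 46.0 kb also lay in another gene, because Sla sits within Tg. Peaks there cannot be assigned to either gene from these files. Rapgef3, a cAMP-activated exchange factor, had 86.4%, Cd82, a tetraspanin of lymphocytes, 86.0% and Akna, an AT-hook protein, 86.0%. Sema7a, a membrane-anchored semaphorin, had 85.6%.

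The last 3 of these 12 were Nprl3 with 85.5%, Zfpm1 with 84.8% and Ptp4a3 with 83.7%. Nprl3 encodes a subunit of the GATOR1 complex, and its introns are known to hold the enhancers of the neighbouring alpha-globin genes. Zfpm1 encodes FOG1, the partner of GATA factors in red cell and other blood lineages. Ptp4a3 encodes a phosphatase and lies at chr15:73723145-73758766. It had no H3K4me3, p300 or N-MYC peak within 1 kb of either end.

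The 5 widest single peaks all had their summit in a gene body, but at least those of Ptp4a3 and Cd82 also overlapped a promoter window. The widest, of 29.1 kb, lay in Nfix, a nuclear factor I transcription factor, at chr8:84718045-84747099, with a fold enrichment of 17.7. The next, of 27.5 kb, lay in Ptp4a3, and overlapped 2 H3K4me3, 3 p300 and 4 N-MYC peaks. The third, of 26.4 kb, was in Tbc1d2b, a regulator of Rab GTPases, and overlapped 7 p300 peaks. The fourth, of 24.6 kb, was in Cd82 and the last, of 22.2 kb, in Akna. All of them overlapped at least 1 H3K4me3 and 1 p300 peak, and none overlapped a SUZ12 or H3K27me3 peak. Wider peaks have more room for overlap, and the same counts over all H3K27ac peaks are not given here.

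Ranked by the strongest promoter peak, Clk1, a kinase of splicing factors, had the highest fold enrichment, 42.6, in 1 peak, and 2415 bp of its territory were covered. Zc3h4, a zinc-finger protein that limits stray transcription, had 41.0. Dnajb4, a co-chaperone, and Fubp1, a DNA-binding protein known as a regulator of Myc, start beside each other on opposite strands of chromosome 3 and shared 1 peak of 40.8. Pcbp1, an RNA-binding protein, and Top1 both had 40.4, the calcium-binding protein Efcab2 39.5 and the HSP90 co-chaperone Chordc1 39.4. Of these 8 genes, 4 had a single peak in the territory (Clk1, Fubp1, Pcbp1 and Chordc1), against 35.6% of all genes with a peak. Only Zc3h4, with 15.1 kb, had more than 10 kb covered, while 5.56% of all genes had 10 kb or more. The genes named above for the most cover and those named here for the strongest promoter peak shared no name. Both lists were short beside all protein-coding genes, so unrelated rankings would also be likely to share none. Whether cover of the territory and strength of the promoter peak go together was not tested.

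The 5 longest genes with no H3K27ac peak were Dmd, Ptprd, Lsamp, Lrp1b and Macrod2, with spans of 1998 to 2390 kb. Dmd encodes the dystrophin of muscle, while Ptprd, Lsamp and Lrp1b encode membrane proteins best known from neurons. All 5 carried H3K27me3 at a promoter window, against 41.2% of all genes without an H3K27ac promoter peak. Ptprd and Lrp1b had no listed start and were read at either end. Macrod2, a hydrolase of ADP-ribose, also carried H3K4me3, N-MYC, EZH2 and SUZ12. An absent peak means that no call passed the authors' threshold, not that acetylation was absent.

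Promoters with and without H3K27ac differed in what else lay there. Of the 11302 genes with a promoter peak, 92.1% also had H3K4me3 at the same windows (Wilson interval 91.6 to 92.6), against 7.01% (6.54 to 7.51) of the 10585 without. For p300 the shares were 75.2% and 0.869%, and for N-MYC 62.7% and 0.992%. EZH2 lay at 68.9% of the acetylated promoters and 20.99% of the others. SUZ12 and H3K27me3 went the other way, with 6.31% against 21.5% for SUZ12 and 11.3% (10.7 to 11.9) against 41.2% (40.3 to 42.2) for H3K27me3. Over all genes, H3K27me3 was called at 25.8% of promoters.

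Within the acetylated promoters these shares moved with the strength of the acetylation. The genes with a promoter peak were split into 5 groups of near equal size by its fold enrichment. In the 2261 genes with the weakest peaks, from 1.77 to 6.83, 66.7% had H3K4me3, 27.5% p300, 23.3% N-MYC and 32.6% H3K27me3. In the 2261 with the strongest, from 18.7 to 42.6, H3K4me3 reached 99.3%, p300 97.8%, N-MYC 88.0% and EZH2 91.4%, while H3K27me3 was at 2.30% and SUZ12 at 1.24%. The 3 groups between them lay in order for p300, N-MYC, EZH2, SUZ12 and H3K27me3. The 1538 genes acetylated beyond the promoter alone, which lack a promoter peak by definition, had H3K4me3 at 16.7% of their promoters and H3K27me3 at 56.5%. In the 9047 genes with no cover, which also lack one, the shares were lower for both, 5.36% and 38.6%. All lists are calls past a threshold, and their depths are unknown.

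Genes in pairs that point away from each other had promoter peaks more often. There were 653 such pairs with starts within 1 kb, and 93.9% of their 1306 genes had a promoter peak, against 48.8% of the other 16186 genes with a listed start. In 611 pairs both genes had one, and in 610 of these a single peak overlapped the promoter windows of both, which overlap by the choice of pairs. The median promoter fold enrichment was 14.8 in the paired genes and 12.1 in the others.

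Promoter sequence differed with acetylation as well. In 17492 promoter windows of 300 bases (250 before and 50 from the start, RefSeq GRCm38.p6, 79.9% of the 21887 genes), the ratio of observed to expected CG had a median of 0.782 in the 8930 genes with an H3K27ac peak at the first listed start and 0.253 in the 8562 without. A peak was called at 14.8% (13.9 to 15.7) of promoters with a ratio under 0.3, 41.6% (40.0 to 43.3) of those from 0.3 to 0.6, and 78.9% (78.01 to 79.8) of those above. Where a peak was present, its median fold enrichment was 6.66, 10.1 and 13.4 in the same classes.

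The letters of 5 known motifs were searched on both strands of these windows. The ETS core CCGGAAG was in 11.9% of all promoters, in 20.6% with a peak and in 2.87% without, and among promoters with a ratio above 0.6 alone it was in 24.0% and 4.76%. The GC box GGGCGG, found in 46.3% of all, was in 65.6% with a peak and 26.3% without, but in 74.4% and 73.3% among promoters with a ratio above 0.6. The E-box CACGTG, which MYC proteins can bind, was in 7.91% of all, 10.6% with a peak and 5.07% without. Within the CG classes these shares lay closer, with 3.98 and 2.37% under 0.3, 8.33 and 7.24% from 0.3 to 0.6, and 11.96 and 9.86% above, and the printed Top1 window holds the E-box. The TATA box TATAAA was in 13.3% of all, 6.56% with a peak and 20.4% without. With a peak it was the rarer in each class, with 12.3 and 26.7%, 8.61 and 16.8%, and 5.41 and 7.51% from the lowest class to the highest. The RUNX core TGTGGT was in 15.1% of all, 12.4% with a peak and 17.9% without, but within the classes the order was the other way, with 23.9 and 22.5%, 17.1 and 15.8%, and 9.98 and 7.84%. The printed Lck window holds the RUNX core, and the printed Cd3d window holds none of the 5. The GC box and the ETS core contain CG themselves, as does the E-box, and a match of letters is not a bound site.

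Gene groups of the T lineage were read next, against 51.6% of all genes with a promoter peak, 58.7% with any peak, 5.56% with 10 kb or more covered and a median cover over all genes of 1180 bp. Of 20 T-cell transcription factor genes, 18 (90%) had a promoter peak and all 20 a peak, the median cover was 10658.5 bp, and 11 had 10 kb or more. H3K27me3 also lay at 9 of the 20 promoters and SUZ12 at 6, against 25.8% and 13.7% of all promoters. Runx1, a factor of early T-cell and blood development, was highest with 69 peaks over 71.9 kb. Ets1 had 29 peaks over 43.5 kb and Ikzf1, the lymphoid factor Ikaros, 35 over 43.3 kb. Tcf7, which encodes the early T-lineage factor TCF1, had the strongest promoter peak of the list, with a fold enrichment of 30.2, and 22.6 kb covered. Gfi1, a repressor of blood development, was covered over 98.5% of its territory by 1 peak, and EZH2, SUZ12 and H3K27me3 peaks also lay at its promoter. Runx1, Ikzf1, Gfi1 and Myb are known from other blood lineages as well, and all 8 erythroid marker genes, given below, also had a promoter peak, whose part in these values was not tested. Bach2, a repressor of lymphocyte differentiation, had no promoter peak, with 4613 bp in its body.

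Of 24 T-cell receptor and surface genes, 18 (75%) had a promoter peak, 19 (79.2%) any peak and 6 had 10 kb or more, with a median of 5816.5 bp. The CD3 zeta chain gene Cd247 was highest, with 32 peaks over 42.9 kb. Cd2, an adhesion molecule, had 12035 bp covered and Lck 10110 bp. Cd3d and Cd27 were covered over their whole territory, and Cd3d and Cd3g shared a promoter peak of 25.8. Cd4 had 4 peaks over 6116 bp with a promoter fold enrichment of 11.8, while both CD8 genes, Cd8a and Cd8b1, had 0 peaks. The recombinase genes Rag1 and Rag2 and the pre-T-cell receptor gene Ptcra also had 0, and Dntt, which adds bases during receptor rearrangement, had 625 bp and no promoter peak. Il7r, the interleukin 7 receptor chain, had the least cover of the genes with a promoter peak, 1362 bp.

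These receptor and surface genes had promoters poor in CG. Over the 17 with a listed start, the median ratio of observed to expected CG was 0.198, and 12 were under 0.3, of which 7 had a peak, against 14.8% of all promoters in that class. In the transcription factor genes the median ratio was 0.655 over 16 promoters. All 10 of those above 0.6 had a peak, against 78.9% of all promoters in that class.

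Of 20 trafficking, cytokine and survival genes, 16 (80%) had a promoter peak and 5 had 10 kb or more. The cell cycle kinase gene Cdk6 was highest with 71 peaks over 62.3 kb, then Jak1, a kinase of cytokine receptors, with 50 over 46.6 kb, Stat5b, its downstream factor, with 31.5 kb, and Arid5b with 41 peaks over 24.4 kb. The lowest above 0 was S1pr1, the receptor used to leave the thymus, with 1113 bp. Klf2, a factor that promotes S1pr1, had 0, as had the chemokine receptor gene Ccr9, the interleukin 2 receptor gene Il2ra and the cytokine inhibitor gene Socs3. At the Klf2 promoter H3K4me3 and p300 peaks were called, and so were EZH2, SUZ12 and H3K27me3 peaks.

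All 16 MYC-family growth targets had a promoter peak and 0 had 10 kb or more, with a cover of 1841 bp (Cdk4) to 6221 bp (Ccnd2) and a median of 3098.5 bp. N-MYC peaks lay at all 16 of these promoters, against 32.9% of all promoters and 62.7% of those with an H3K27ac peak. They also lay at 13 of the 15 housekeeping promoters and at 16 of 19 in the acetylation list below. Of 15 housekeeping genes 14 had a promoter peak, and their cover ran from 1509 bp (Sdha) to 8255 bp (Gusb). Ywhaz was the exception, with 8 peaks over 6503 bp and none at either end. The median promoter fold enrichment was 17.99 in the growth targets, 19.7 in the housekeeping genes, 12.9 in the T-cell transcription factor genes and 12.3 over all genes with a promoter peak.

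The genes that write, read and erase the mark were read in the same way. All 19 listed genes of acetyltransferases, bromodomain proteins and deacetylases had a promoter peak, against 51.6% of all genes. The growth targets and housekeeping genes above had similar shares. Of the 15 promoters with a listed start, 13 had a CG ratio above 0.6, a class in which 78.9% of all promoters had a peak. Ep300, which encodes p300, had the strongest of the list, 33.6, with 2169 bp covered, and Crebbp, its relative CBP, 23.2 with 1923 bp. The number of peaks ran from 1 to 38, with a median of 2 per gene. Hdac7, a class II deacetylase known from thymocytes, had 28.5 kb and Hdac4 24.3 kb in 38 peaks. Kat2b had 12.3 kb, and the smallest cover was 1880 bp at Sirt1.

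Among the 10 genes of the profiled factors and their partners, 9 had a promoter peak, and the exception was Mycn. It had 1 peak, with 341 bp in its territory and none in the promoter windows, and EZH2, SUZ12 and H3K27me3 peaks lay at its promoter. Myc had 1 weak peak of 489 bp, with a fold enrichment of 3.63, and the same 3 Polycomb-related lists at its promoter beside H3K4me3. The partner gene Max had 9 peaks over 11.3 kb. Ezh2, Suz12, Eed, Rbbp4 and Rbbp7 had 1 peak each, over 2078 to 2774 bp. Jarid2, an accessory factor of Polycomb repressive complex 2, was highest with 20 peaks over 19.7 kb. The labels name MYCN as the driver but not the construct, so a transgene cannot be seen in a list by gene.

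Markers of other cells that a thymic tumour can hold were mostly below the level of all genes, with 1 exception. Of 12 myeloid genes 3 (25%) had a promoter peak, with fold enrichments of at most 4.83, and 9 had no peak, among them Lyz2, Mpo and S100a8. Of 12 B-cell genes 5 (41.7%) had one, and the lineage factor genes Pax5 and Ebf1 had 0 peaks. Blk had the most cover with 6594 bp and Vpreb1 the strongest promoter peak, 21.4. Of 14 thymic epithelial and stromal genes 5 (35.7%) had one, and Krt5, Krt8 and Psmb11 had 0 peaks, but Pecam1, an adhesion molecule of endothelium and blood cells, had 37 peaks over 24.4 kb and Pdgfrb 15 over 9293 bp.

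The exception was the erythroid list. All 8 of its genes had a promoter peak, with a median of 4166 bp covered, 1815 bp at Hba-a1 and 5851 bp at Slc4a1, the anion exchanger of red cells, and promoter fold enrichments of 4.70 (Alas2) to 13.6 (Klf1). The alpha- and beta-globin genes Hba-a1 and Hbb-bt had 8.63 and 8.26. H3K4me3 lay at all 8 promoters, p300 at 1 (Klf1) and N-MYC at 0. In the T-cell receptor and surface list p300 lay at 16 of 24 and N-MYC at 9 of 24. Over all protein-coding genes H3K4me3 lay at 51.0% of promoters, p300 at 39.3% and N-MYC at 32.9%. The median ratio of observed to expected CG over the 6 erythroid promoters with a listed start was 0.177. Nprl3 and Zfpm1 above are also known in red cell biology. Both of their promoters carried p300 and N-MYC peaks, as did 75.2% (p300) and 62.7% (N-MYC) of all promoters with an H3K27ac peak. Whether the H3K27ac peaks of the erythroid list came from the lymphoma cells or from red cell precursors in the sample was not tested.

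**Figure D4:**
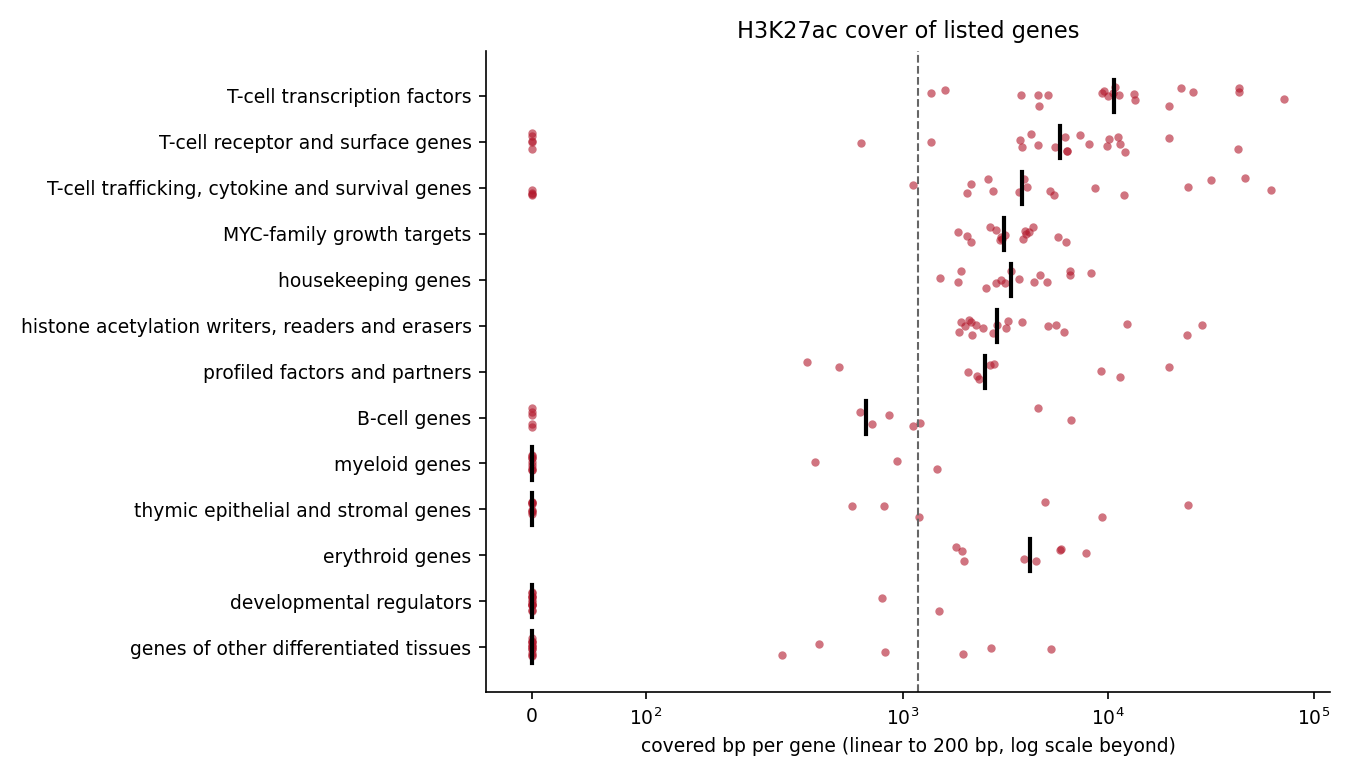
Bp covered by H3K27ac peaks per gene (x axis linear to 200 bp and logarithmic beyond) for the genes of 13 lists, with 1 red point per gene, the list median as a black bar and the median over all protein-coding genes (1180 bp) as a dashed line. The medians of the T-cell, growth, housekeeping, acetylation, profiled-factor and erythroid lists lie right of the line, and those of the B-cell, myeloid, stromal, developmental and other-tissue lists left of it.

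Regulators and products of other lineages mostly had no peak. Of 15 developmental regulators 2 (13.3%) had a promoter peak, Gata4 with 1488 bp and Hand1 with 785 bp, and 13 had no peak, among them Pax6, Sox2 and Hoxd13. H3K27me3 and SUZ12 lay at all 15 of these promoters, against 25.8% of all promoters for H3K27me3 and 13.7% for SUZ12. EZH2 lay at 14, against 45.8% of all. Of 18 genes of other differentiated tissues 4 (22.2%) had a promoter peak, the most covered being Gfap, known from astrocytes, with 5259 bp. H3K27me3 lay at 11 of these 18 promoters, against 25.8% of all. Alb, Ins2 and Umod were among those without it, and they had no H3K27ac peak at the promoter either. The developmental promoters were rich in CG, with a median ratio of 0.817 over 8, and 0 of the 6 above 0.6 had a peak, against 78.9% of all promoters in that class.

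Density differed between chromosomes by more than counting error. Over all it was 32.8 peaks per Mb. Chromosome 11 was highest with 60.9 (exact Poisson interval 59.5 to 62.3), then chromosome 17 with 51.7 (50.3 to 53.2) and chromosome 19 with 49.3 (47.5 to 51.2). Chromosome 3 was the lowest autosome with 22.4 (21.7 to 23.2), before chromosome 14 with 25.1 (24.3 to 26.1). The order followed the density of genes, with a Spearman correlation of 0.875 over the 19 autosomes, which share 1 library. Chromosome 7 had more genes per Mb (14.3) than chromosome 11 (13.5) but only 43.2 peaks per Mb, and 44.9% of its genes had a promoter peak, the lowest share of the autosomes, against 62.3% on chromosome 11, the highest. Chromosome 15 had 42.9 peaks per Mb with 7.71 genes per Mb, and its 5.56 peaks per gene were the most of all chromosomes.

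The X chromosome carried 7.04 peaks per Mb (6.64 to 7.46) with 5.87 genes per Mb, close to the gene density of chromosomes 12 and 18, which had 31.6 and 27.6 peaks per Mb. It had 1.20 peaks per gene, against a median of 4.21 over the autosomes. A promoter peak was called at 32.2% of its genes, against a median of 53.0%, and promoters made up 30.4% of its peaks. The lists of the other antibodies were sparse on X as well, with 2.82 peaks per Mb for H3K4me3 and 1.07 for p300. The Y chromosome had 13 peaks.

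**Figure D5:**
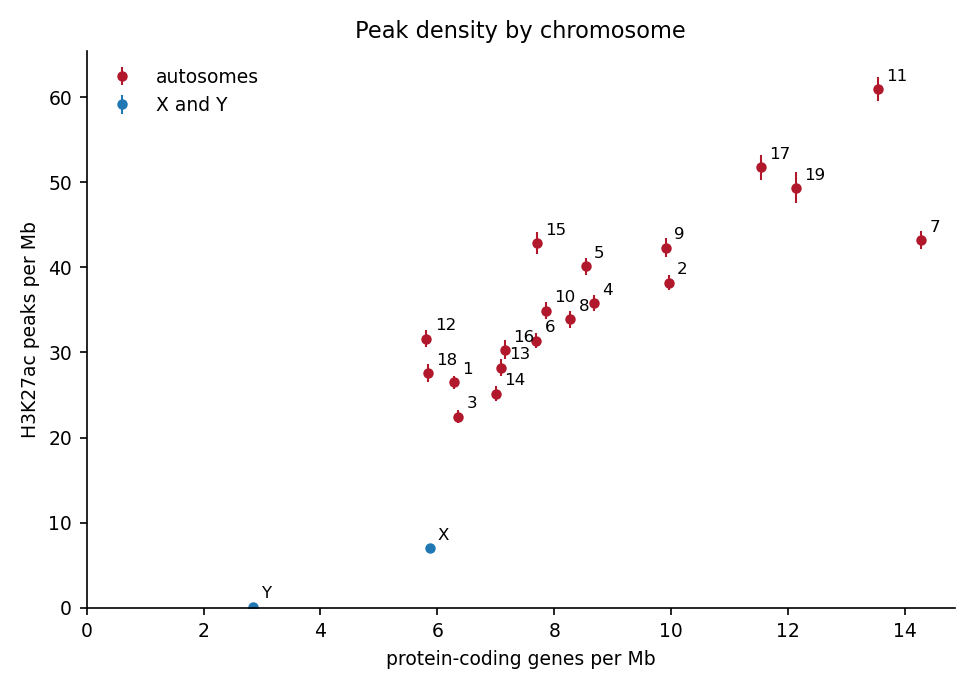
H3K27ac peaks per Mb against protein-coding genes per Mb, with 1 point per chromosome and exact 95% Poisson intervals as bars (autosomes red, X and Y blue). Chromosome 11 is highest with 60.9 peaks per Mb, chromosome 3 is the lowest autosome with 22.4, and X lies below all autosomes with 7.04.

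In windows of 1 Mb, the most covered lay on chromosome 10 at chr10:80000001-81000000, with 304 peaks over 334.6 kb and Sbno2 as its most covered gene. A window on chromosome 2 (chr2:167000001-168000000), with Ptpn1, a tyrosine phosphatase, had 304 peaks over 276.8 kb. Of the 8 most covered windows, 3 were on chromosome 8 and 3 on chromosome 2. The window with Gse1 had 252 peaks over 257.0 kb and that with Zfpm1 217 over 256.3 kb.

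Genes that make no protein were acetylated less often. A peak lay in the span of 28.9% of 12727 lncRNA genes (28.1 to 29.7), against 57.9% of protein-coding genes (57.3 to 58.6) by the same measure, and in 4.61% of 9944 pseudogenes. These classes differ in length, with median spans of 8429, 17169 and 910 bp in the same order, and length was not matched. Of 8150 lncRNA genes with a listed start away from protein-coding promoter windows, 1444 (17.7%) had a peak within 1 kb of the start. The most covered lncRNA gene outside the spans of protein-coding genes was Pvt1, the lncRNA next to Myc (chr15:62037986-62260215), with 90 peaks over 48.9 kb, while Myc itself had 489 bp covered. Lncpint followed closely after A430093F15Rik, each with 34.0 kb.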

How the data were processed

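Chromatin was profiled by ChIPmentation, per the labels' protocols. The submitters' processing notes name FastQC, Bowtie2, SAMtools, MACS2 and deepTools and the builds mm10 and GRCm38, with no version or setting. Whether the inputs served as controls is not given in the sources used here, and the depth is unknown. Each deposited list gave positions and summits, a fold enrichment (a linear ratio, as deposited by the authors), the −log10 p-value and q-value (deposited by the authors; the smallest −log10 q for H3K27ac was 2.00) and a score (deposited, and used for no result).

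All 87072 rows were distinct and did not overlap. Genes and promoter sequences came from RefSeq on GRCm38.p6. That gene table has no strand, so starts came from the promoter table for 17492 genes, and either end was used for the other 4395. Shares have 95% Wilson intervals and densities exact Poisson intervals. Chromosome spans run between the outermost peaks of the 7 lists. The named genes were the 12 with most covered bp, the 12 with the highest covered share of at least 20 kb, the 8 with most peaks, the 8 with the strongest promoter peak, the 5 longest without a peak, the genes at the 5 widest peaks, and the highest, lowest and empty genes of 13 lists (203 genes). A few genes are counted in their lists but not reported here by name. Members, lists and rules were chosen with earlier results of these data known. The profiles around starts and along genes, the 5 strength groups, the CG classes, the paired genes and the 1 Mb windows were added after seeing the data. Python 3.11.15, NumPy 2.4.6, pandas 2.3.3 and SciPy 1.17.1 were used, and the interval code was tested on simulated data.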

Additional observations from a re-analysis of the deposited data

How the results depend on the processing

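No paired analysis was possible because each antibody had 1 library. The shares of H3K27ac peaks at promoters, in gene bodies and between genes were 10.4, 55.8 and 33.8% with promoter windows of 0.5 kb and 19.1, 49.6 and 31.3% with 2 kb. They were 15.4, 52.6 and 32.0% when any overlap replaced the summit, and 21.4, 49.4 and 29.2% by covered bp. They were 17.9, 50.2 and 31.9% at a q-value of at most 1e-05 (60694 peaks), and 22.4, 46.1 and 31.5% at a fold enrichment of at least 4 (44788 peaks). With all RefSeq genes they were 18.4, 57.6 and 24.0%, and with either end of every gene, a setting chosen after seeing the data, 14.7, 53.6 and 31.6%. The share of genes with a promoter peak was 50.3% at 0.5 kb, 52.9% at 2 kb, 50.2% at the stricter q-value, 48.8% at the stricter fold enrichment, 32.3% for all RefSeq genes and 52.4% with either end of every gene. The median cover of genes with a peak was 2427 bp at the stricter q-value, 2374.5 bp at the stricter fold enrichment, 2214 bp for all RefSeq genes, 1856.5 bp in the gene span alone and 4095 bp with 10 kb on both sides. The richest 10% of genes held 54.3% of the cover at the stricter fold enrichment, 67.6% for all RefSeq genes, 61.4% in the span alone and 47.6% with 10 kb on both sides. The ratio of the peak densities of chromosomes 11 and 3, 2.71, was 2.09 with peaks within 3 kb merged and 2.36 at the stricter fold enrichment. The cause of these moves was not tested beyond the settings themselves. Of the 44 alternative values, 41 lay outside the interval or margin of the main one, which covers counting error only. Of the 12 genes with most cover, 12 remained at the stricter q-value and 10 at the stricter fold enrichment, where Chst11 and Maml3 left. The counts of 18 T-cell receptor and surface genes and 8 erythroid genes with a promoter peak were the same under the 3 settings run for them, and that of the developmental regulators went from 2 to 1 under the stricter fold enrichment and under the 0.5 kb window.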

Other observations

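Lists chosen after the values were seen add the following, as description, beside 51.6% of all protein-coding genes with a promoter H3K27ac peak. Of 24 further erythroid genes, 22 had a promoter H3K27ac peak and all 24 had a peak, with a median of 3955 covered bp. Sptb, the spectrin beta chain of red cells, was highest with 27 peaks over 24.3 kb, and Car1, a carbonic anhydrase, lowest with 897 bp. Nfe2, a globin regulator, had 8776 bp over 72.0% of its territory. Only Ank1 and Add2 had no promoter peak among the 24, and both had cover in the body (13.8 and 7.21 kb). H3K4me3 lay at 22 of these promoters, p300 at 4 and N-MYC at 1.

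Of 15 genes of innate-like T and NK cells, 7 (46.7%) had a promoter peak, a share near that of all genes, and 8 had no peak at all, among them Ifng, Gzmb, Prf1 and Eomes. Zbtb16, which encodes PLZF, the defining factor of innate-like T cells, had 54 peaks over 67.8 kb and a promoter fold enrichment of 22.9. Among 10 genes of helper, regulatory and checkpoint functions 6 (60%) had a promoter peak, which is also near that of all genes. Pdcd1, the gene of the checkpoint receptor PD-1, had 8 peaks over 84.3% of its territory, and Cxcr5 9 over 74.6%. Tnfrsf9 had 5150 bp covered, Tigit 2434 bp, Il4 651 bp and Tnfrsf4 400 bp. Foxp3, Ctla4, Icos and Il17a had 0. Of 12 stem and progenitor genes 3 had a promoter peak, Lmo2, Lyl1 and Spi1, and Kit, Cd34, Meis1 and Flt3 had none. Lyl1, a factor of blood progenitors, was covered over its whole territory.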
